A study of Mus musculus with 6 samples.

Results

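The baseline transcriptome of wild-type ileal mucosa was read from the 3 wild-type arrays of a study of 6, chosen by their labelled genotype alone, and 18193 genes were ranked by their mean level over these arrays. The study compared Duoxa-/- mice, which lack the maturation factors of the hydrogen peroxide-producing dual oxidases, with wild-type littermates housed with them. All mice were females of strain 129S6 at 3 months of age. Each of 3 cages, each a separate litter, gave 1 wild-type and 1 Duoxa-/- sample of terminal ileum, where the small intestine ends, and each sample was RNA pooled from 2 to 3 animals and measured on 1 array. The values are levels of probe sets, the groups of short probes that read 1 transcript, on the log2 scale, so that a difference of 1 is a factor of 2. The number of arrays, 3 pools, limits the precision of every value below, and because each wild-type pool came from another cage, pool and cage cannot be told apart.

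The ileal mucosa is a sheet of absorptive cells folded into villi and crypts above a lamina propria rich in antibody-secreting cells, lymphocytes and fibres of smooth muscle. Its enterocytes digest the last peptides and sugars at the brush border and take up bile acids and vitamin B12, tasks for which the terminal ileum is known. Goblet cells make mucus, Paneth cells at the crypt base release antimicrobial peptides, and plasma cells below the epithelium make the IgA that enterocytes carry into the lumen.

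Over the probe sets of all arrays the medians ran from 6.55 to 6.60, and the 3 wild-type pools correlated pairwise with r of 0.994 to 0.995 across probe sets, which are not independent replicates. By distance from the mean over all 6 arrays, the wild-type pool of cage 1 stood apart. There 286 genes lay 0.5 or more from that mean, against 150 in the wild-type pool of cage 2 and 106 in that of cage 3. Among the wild-type pools alone cage 1 did not stand apart. The mean r with the other wild-type pools was 0.9946 for cage 1, 0.9945 for cage 2 and 0.9951 for cage 3. Ranked on the pools of cages 2 and 3 alone, a setting chosen after the data were seen, 44 of the 49 gene lists used below had the same number of members in the brightest 5% of genes, and each of the other 5 had 1 fewer: the brush border cytoskeleton, Paneth cell, epithelial defence, fibroblast and pancreatic acinar cell lists. The number above the median of all genes was the same for 42 lists and differed by at most 2 for the others. Over all genes the median level was 7.78 and the median SD over the 3 wild-type pools was 0.121. The brightest 5% of genes, 909 in number, began at a mean of 11.83, and their median SD was 0.0811.

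The promoters of 6 genes that carry the findings are shown here, from 250 bases before to 50 bases after the transcription start, taken from RefSeq for build GRCm38.p6. Fabp6, at chr11:43601513-43601812 on the minus strand, encodes the ileal bile acid binding protein and was the brightest gene of enterocyte transport. Reg3b, at chr6:78370635-78370934 on the plus strand, and Reg3g, at chr6:78468825-78469124 on the minus strand, encode antimicrobial lectins and were among the 25 brightest genes. Igtp, at chr11:58199306-58199605 on the plus strand, encodes an interferon-inducible GTPase and had the widest range of the 28 genes on the interferon-stimulated list. In Fabp6, Reg3b and Reg3g, capitals mark matches to TATAAA (the TATA box) or TTTATG (a site of the intestinal CDX factors). In Igtp they mark the core of the interferon-stimulated response element (GAAA and again GAAA, 2 bases apart) or TTCNNNGAA (the gamma-activated site). Each was searched on both strands. The interferon motifs were searched in Igtp alone of these genes, and TTTATG was not searched there. Lower case letters therefore do not show that a motif is missing, and the Reg3b window holds unmarked letters that fit TTCNNNGAA.
Fabp6: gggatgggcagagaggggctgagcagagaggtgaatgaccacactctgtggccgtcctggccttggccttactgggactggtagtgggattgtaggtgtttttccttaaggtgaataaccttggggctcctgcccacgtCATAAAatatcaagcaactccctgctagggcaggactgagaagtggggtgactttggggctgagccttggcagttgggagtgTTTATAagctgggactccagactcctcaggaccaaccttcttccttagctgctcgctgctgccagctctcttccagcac
Reg3b: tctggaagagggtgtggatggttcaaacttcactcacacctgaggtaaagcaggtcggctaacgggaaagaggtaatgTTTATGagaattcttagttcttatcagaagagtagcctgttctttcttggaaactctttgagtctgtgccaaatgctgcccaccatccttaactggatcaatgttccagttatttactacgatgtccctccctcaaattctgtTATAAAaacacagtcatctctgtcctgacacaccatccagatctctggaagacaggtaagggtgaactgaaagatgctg
Reg3g: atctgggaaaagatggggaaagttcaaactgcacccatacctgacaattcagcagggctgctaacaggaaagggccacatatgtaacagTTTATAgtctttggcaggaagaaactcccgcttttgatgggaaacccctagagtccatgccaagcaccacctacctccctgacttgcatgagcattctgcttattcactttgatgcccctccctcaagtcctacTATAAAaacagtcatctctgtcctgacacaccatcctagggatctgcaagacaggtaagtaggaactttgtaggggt
Igtp: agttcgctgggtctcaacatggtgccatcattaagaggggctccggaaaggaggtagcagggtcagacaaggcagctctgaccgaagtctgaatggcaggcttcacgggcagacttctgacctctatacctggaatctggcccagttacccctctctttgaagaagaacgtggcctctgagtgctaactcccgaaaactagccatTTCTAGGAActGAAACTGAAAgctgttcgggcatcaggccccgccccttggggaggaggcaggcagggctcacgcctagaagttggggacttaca

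The TATA box of Reg3b began 29 bases before the start and that of Reg3g 27 bases before it, while the Fabp6 window held the same letters on the opposite strand, 29 bases before the start. CDX letters stood 172 bases before the start in Reg3b and, on the opposite strand, 111 bases before it in Fabp6. In Igtp the gamma-activated site lay 45 and the interferon-stimulated response element 34 bases before the start. Of all 32851 promoter windows of the same length, 13.6% held TATAAA, 11.9% TTTATG, 3.44% the interferon-stimulated response element core and 8.30% TTCNNNGAA. Of the 100 brightest genes, the 69 with exactly 1 window held TATAAA in 15 cases (21.7%). Of the 909 brightest genes, the 599 with exactly 1 window held TATAAA in 69 cases (11.5%). This wider share was close to the 10.2% of the 11791 measured genes with exactly 1 window. A match of letters is a description of the window and not a site in use.

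A further pair is shown for what it shares. Hspa1a, at chr17:34972107-34972406, and Hspa1b, at chr17:34959189-34959488, both on the minus strand, encode the inducible heat shock protein 70, and both stood among the 20 genes with the widest range over the wild-type pools. Their windows were identical at 296 of 300 positions, and capitals mark the 4 that differ.
Hspa1a: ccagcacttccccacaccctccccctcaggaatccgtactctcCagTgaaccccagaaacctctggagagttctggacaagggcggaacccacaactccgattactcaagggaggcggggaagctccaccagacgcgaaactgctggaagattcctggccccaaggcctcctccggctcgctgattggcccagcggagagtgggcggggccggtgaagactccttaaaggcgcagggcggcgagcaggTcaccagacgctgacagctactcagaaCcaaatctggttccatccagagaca
Hspa1b: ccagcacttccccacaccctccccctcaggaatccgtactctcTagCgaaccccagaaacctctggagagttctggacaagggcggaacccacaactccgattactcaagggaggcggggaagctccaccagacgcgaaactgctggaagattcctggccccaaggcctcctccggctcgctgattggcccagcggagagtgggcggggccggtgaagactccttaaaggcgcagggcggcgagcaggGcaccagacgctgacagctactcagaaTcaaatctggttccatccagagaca
With no mismatch allowed, on either strand, a heat shock element (GAA, TTC and GAA, each 2 bases apart) occurred 0 times in both windows and in 0.603% of all windows. Hspa1a read 8.40, 7.96 and 10.12 in the wild-type pools of cages 1, 2 and 3, and Hspa1b read 11.27, 10.65 and 12.48. Cage 3 was highest and cage 2 lowest for both, and probe sets of such similar genes may read both transcripts.

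The brightest transcripts of wild-type ileum came from Paneth, goblet and absorptive cells, from IgA-producing cells and from the machinery of translation and respiration. The 25 brightest genes spanned means of 15.02 to 14.32, with SDs of 0.014 to 0.155. Brightness depends on the probes of a set as well as on the transcript, and signal near the top of the scale is compressed, so the order is one of brightness and not of transcript copies. Of the 24 steps from one gene to the next in this order, 3 were larger than the SD of the brighter gene, those after Defa31, Tpt1 and Uqcrb, so most neighbours did not differ beyond their spread. Ranked over cages 2 and 3 alone, the top 25 kept 24 genes, and 24 of them were also among the 25 brightest of the Duoxa-/- pools.

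**Figure D1:**
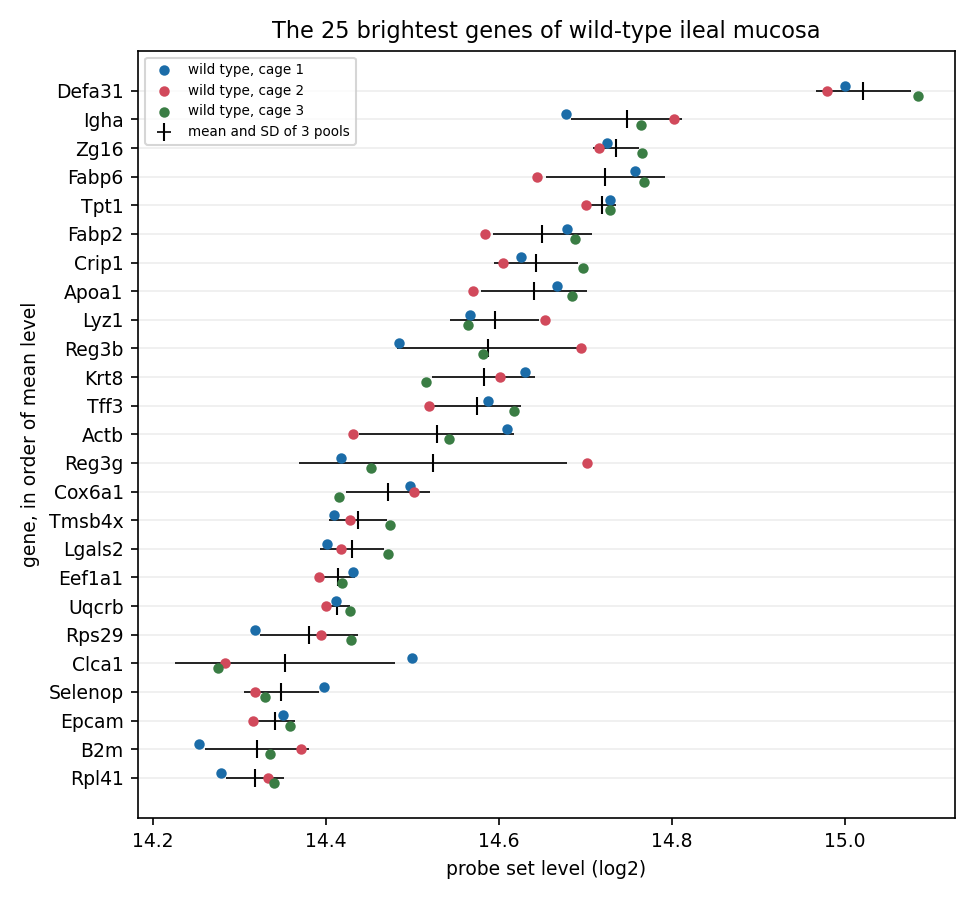
Level (log2) of the 25 brightest genes in each wild-type pool; coloured points are the pools of cages 1, 2 and 3, and the black mark and line are their mean and SD. Defa31 stands clear at 15.02, the other 24 lie between 14.75 and 14.32, and Reg3g has the widest spread.

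Secreted defence products led the list. Defa31, an alpha-defensin of Paneth cells, read between 14.98 in cage 2 and 15.08 in cage 3. Alpha-defensin genes are near-identical, so this probe set may read several of them. Lyz1, the Paneth cell lysozyme, read 14.57, 14.65 and 14.56. Reg3b read 14.48, 14.69 and 14.58, and Reg3g read 14.42, 14.70 and 14.45. Cage 2 was highest for both Reg3 lectins, and their SDs of 0.11 and 0.16 were among the larger ones of the 25. The goblet cell products Zg16, a lectin of mucus, Tff3, a trefoil peptide, and Clca1, a mucus-processing protease, had means of 14.74, 14.57 and 14.35. Clca1 read 14.50 in cage 1 against 14.28 in cages 2 and 3.

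Absorptive cells supplied the next group. Fabp6 read 14.76, 14.64 and 14.77, and the intestinal fatty acid binding protein gene Fabp2 read 14.68, 14.58 and 14.69. Apoa1, the main apolipoprotein of high-density lipoprotein, read 14.67, 14.57 and 14.68. All 3 genes were lowest in cage 2, and their SDs were 0.057 to 0.069. The epithelial keratin Krt8 (14.58), the adhesion molecule Epcam (14.34), the galectin Lgals2 (14.43), the zinc-binding LIM protein Crip1 (14.64) and the selenium carrier Selenop (14.35) completed the epithelial genes. Igha, the constant region of the IgA heavy chain, ranked next to Defa31 with 14.68, 14.80 and 14.76, and was lowest in cage 1.

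The other members of the 25 are expressed in most cells. They were Tpt1 (translationally controlled tumour protein, 14.72), Eef1a1 (elongation factor, 14.41), Rps29 (14.38) and Rpl41 (14.32) of the ribosome, Actb (cytoplasmic actin, 14.53), Tmsb4x (an actin-binding thymosin, 14.44), Cox6a1 (14.47) and Uqcrb (14.41) of the respiratory chain, and B2m (the light chain of MHC class I, 14.32). Among the 100 brightest genes, 23 were ribosomal protein genes. Of the 49 genes with the symbol of a cytosolic ribosomal protein, 36 (73.5%) were in the brightest 5% of genes. Of 25 respiratory chain subunits on a fixed list, 24 were, and their median level was 13.22.

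Of the 25 genes, 16 had more than 1 probe set, and some of these disagreed. A second probe set read 14.66 for Igha and 14.23 for Reg3b, and 12.69 for Uqcrb. It read 4.01 for Tpt1, and of the 2 other Lyz1 probe sets 1 read 14.53 and the other 6.45. Clca1 (9.23), Epcam (10.56) and Actb (10.96) also had a much dimmer one, and 2 of the 3 other Rpl41 probe sets read 8.07 and 8.88. A dim probe set therefore does not show that a transcript is absent. With the mean of all probe sets in place of the brightest, 17 of the 25 genes remained in the list. Without probe sets marked for cross-hybridisation, 20 remained.

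Transport genes spanned levels from 3.62 to 14.20. Of 407 measured genes with Slc, Slco or Abc symbols, 33 (8.11%) were in the brightest 5% of genes, and 34 were when the pool of cage 1 was left out. Leaving out mitochondrial Slc25 carriers, scaffold proteins with Slc symbols and the Abce and Abcf proteins, which carry no solute, 23 of 350 (6.57%) were, and this narrower count was chosen after the data were seen. The median level of the 407 was 7.99, near the 7.78 of all genes. Among the 15 Slco genes (organic anion transporters) 0 were in the brightest 5% of genes, and the brightest was the prostaglandin transporter Slco2a1 (10.51).

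The route of bile acids ran through 4 bright genes. Slc10a2, the apical sodium-dependent bile acid transporter, read 12.18, 12.25 and 12.55 in cages 1, 2 and 3. Inside the cell stands Fabp6, given above. Slc51a and Slc51b, the 2 subunits of the basolateral exporter, read 13.36, 13.29 and 13.40 and 13.08, 13.22 and 13.34. Cage 3 was highest for all 4 genes. Nr1h4, the bile acid receptor FXR, read 11.43, 11.84 and 11.46, while its target Fgf15, the hormone that restrains bile acid synthesis in the liver, was at 9.40, 8.63 and 8.60. Fgf15 had the lowest mean of the 9 measured genes of this list, 4 of which were in the brightest 5% of genes.

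Vitamin B12 genes were bright as well. Tcn2, which carries B12 in blood, read 13.23, 13.22 and 13.23, and was among the 10 steadiest of the bright genes. Cubn, the receptor for B12 bound to intrinsic factor, read 12.98, 12.73 and 12.91, and its partner Amn read 11.57, 11.51 and 11.86. Slc52a3, a riboflavin transporter, had a mean of 11.70, and Lrp2, the large endocytic receptor of kidney, was lowest of the 13 measured vitamin genes at 4.76.

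**Figure D2:**
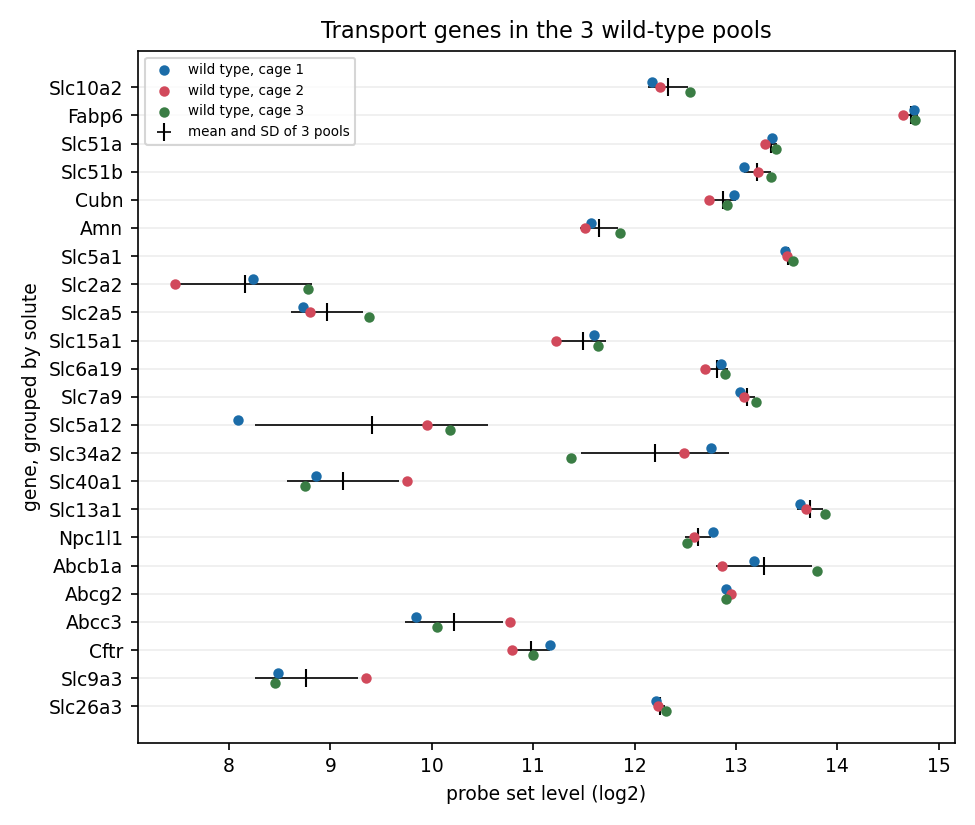
Level (log2) of 23 transport genes in the 3 wild-type pools, grouped by the solute they carry, from bile acids and vitamin B12 at the top to ions at the bottom; points are pools and the black mark and line are mean and SD. Most genes have overlapping points, while Slc5a12, Slc34a2 and Slc2a2 span 2.09, 1.37 and 1.31.

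Among sugar carriers the sodium-glucose cotransporter gene Slc5a1 was alone in the brightest 5% of genes, at 13.48, 13.50 and 13.56. The fructose transporter gene Slc2a5 read 8.73, 8.80 and 9.38. Slc2a2, the basolateral glucose transporter, read 8.23, 7.47 and 8.78. Both were highest in cage 3, as were 7 of the 9 measured sugar transporter genes, against 28.0% of all genes. In the Duoxa-/- pools, which were not used to choose these genes, cage 3 was highest for 6 of the 9, against 34.0% of all genes. With 1 array per pool this was not tested.

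Of 20 amino acid and peptide transporter genes, 6 were in the brightest 5% of genes. The cystine and dibasic amino acid carrier was represented by its light chain gene Slc7a9 (13.04, 13.08 and 13.19) and its heavy chain gene Slc3a1 (11.91, 12.08 and 12.41). Slc6a19, the main carrier of neutral amino acids at the brush border, read 12.86, 12.69 and 12.89. The taurine transporter gene Slc6a6 had a mean of 12.59 and the proline transporter gene Slc6a20a one of 12.06. The peptide transporter gene Slc15a1, named after its values were seen, had a mean of 11.49. The widest range belonged to Slc7a8, a basolateral exchanger, at 8.59, 7.56 and 8.53. Slc6a14, a carrier of neutral and basic amino acids, was higher in cage 2 (11.47) than in cages 1 and 3 (10.52 and 10.49).

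Genes of ion and water movement centred on chloride, sodium and sulfate. Atp1b1, the beta subunit of the sodium pump, read 14.05, 14.02 and 14.04, and Guca2a and Guca2b, the hormones guanylin and uroguanylin that set salt secretion, had means of 14.05 and 13.12. Slc13a1, a sodium-sulfate cotransporter, was the brightest solute carrier outside mitochondria, at 13.63, 13.69 and 13.88. Slc12a2, which loads chloride for secretion, had a mean of 12.63, and the anion exchanger genes Slc26a2 and Slc26a3 had means of 12.39 and 12.25. Slc9a3, the sodium-proton exchanger of absorption, read 8.48, 9.35 and 8.45, highest in cage 2. Scnn1g, a subunit of the epithelial sodium channel, was the dimmest of the 26 ion transport genes at 4.88, and Aqp7, a glycerol and water channel, had the widest range (8.32, 7.41 and 8.46).

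Mineral transport held more variable genes. Fth1, the ferritin heavy chain, had a mean of 13.96 and Heph, the ferroxidase of iron export, one of 12.54, with ranges of 0.17 and 0.06. Slc34a2, the phosphate transporter of the ileal brush border, read 12.75, 12.49 and 11.38. S100g, the calcium-binding calbindin of enterocytes, read 8.55, 8.79 and 7.16, and the manganese exporter gene Slc30a10 read 8.66, 9.23 and 7.76. All 3 were lowest in cage 3 among the wild-type pools, and of the 24 measured mineral genes 4 had a range of at least 1, against 0.830% of all genes. Slc40a1, the iron exporter ferroportin, was the other, at 8.86, 9.76 and 8.75, and Trpv6, the apical calcium channel, was lowest of the list at 5.70.

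Single efflux pump and lipid transport genes were bright. Abcb1a, a multidrug exporter, read 13.17, 12.87 and 13.80, and Abcg2 read 12.90, 12.95 and 12.90. These 2 and the peroxisomal Abcd3 (12.39) were the 3 of 45 Abc genes (6.67%) in the brightest 5% of genes, and the median of the 45 was 8.36. Apob, the scaffold of chylomicrons, read 13.63, 13.73 and 13.84, and Npc1l1, the cholesterol importer, read 12.77, 12.58 and 12.52. Fabp1, the liver-type fatty acid binding protein, read 11.10, 10.40 and 10.10.

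Slc5a12, a sodium-coupled carrier of lactate, had the widest range of any transporter gene, at 8.09 in cage 1 against 9.96 and 10.18 in cages 2 and 3. The Duoxa-/- pools read 8.90, 9.03 and 9.61, lowest and highest in the same cages. Slc44a2, a choline transporter family member, read 8.28, 9.82 and 9.17. Across the 407 genes, 9 (2.21%) had a range of at least 1, against 0.830% of all genes, and their median SD of 0.124 was close to the 0.121 of all genes.

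The brush border cytoskeleton list was among the brightest, and the brush border hydrolase list had a median of 11.41. The aminopeptidase gene Enpep read 14.17, 14.20 and 14.20, the meprin gene Mep1b 13.80, 13.91 and 13.86, and the dipeptidase gene Naaladl1 13.68, 13.52 and 13.51. Mgam, maltase-glucoamylase, had a mean of 13.39 and Dpp4, a dipeptidyl peptidase, one of 13.27. Folh1, the folate hydrolase, was lowest at 3.74. Of 18 measured hydrolase genes 12 lay above the median of all genes, and 9 were in the brightest 5% of genes. Of 20 genes of the brush border cytoskeleton 13 were, including the keratin genes Krt19 (13.89) and Krt20 (13.81), villin, Vil1 (13.38), and ezrin, Ezr (13.37). The median of this cytoskeleton list was 12.38, and its pool medians were 12.41, 12.36 and 12.35.

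Genes known from regions of the gut were read beside the labelled tissue. These lists were chosen with earlier results of these data known, so their levels are no test of the label. Of 11 measured genes enriched in ileum, 9 were in the brightest 5% of genes, with a median of 12.87, and pool medians of 12.90, 12.73 and 12.91. Of 16 genes typical of duodenum and jejunum 0 were, with pool medians of 8.05, 7.65 and 8.34. Among these, Lct (lactase) was at 4.41 and Gata4, the transcription factor of proximal small intestine, at 5.48, while Apoa4 (11.75) and Sct (secretin, 11.59) were bright. Of 12 genes enriched in colon 2 were in the brightest 5% of genes, Slc26a3 (12.25) and the carbonic anhydrase gene Car4 (12.22), and the median was 7.44. The intestinal transcription factor genes Hnf4a (13.22), Klf5 (12.93) and Cdx2 (11.82) were bright, and Cdx2 read 11.82 in every pool.

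**Figure D3:**
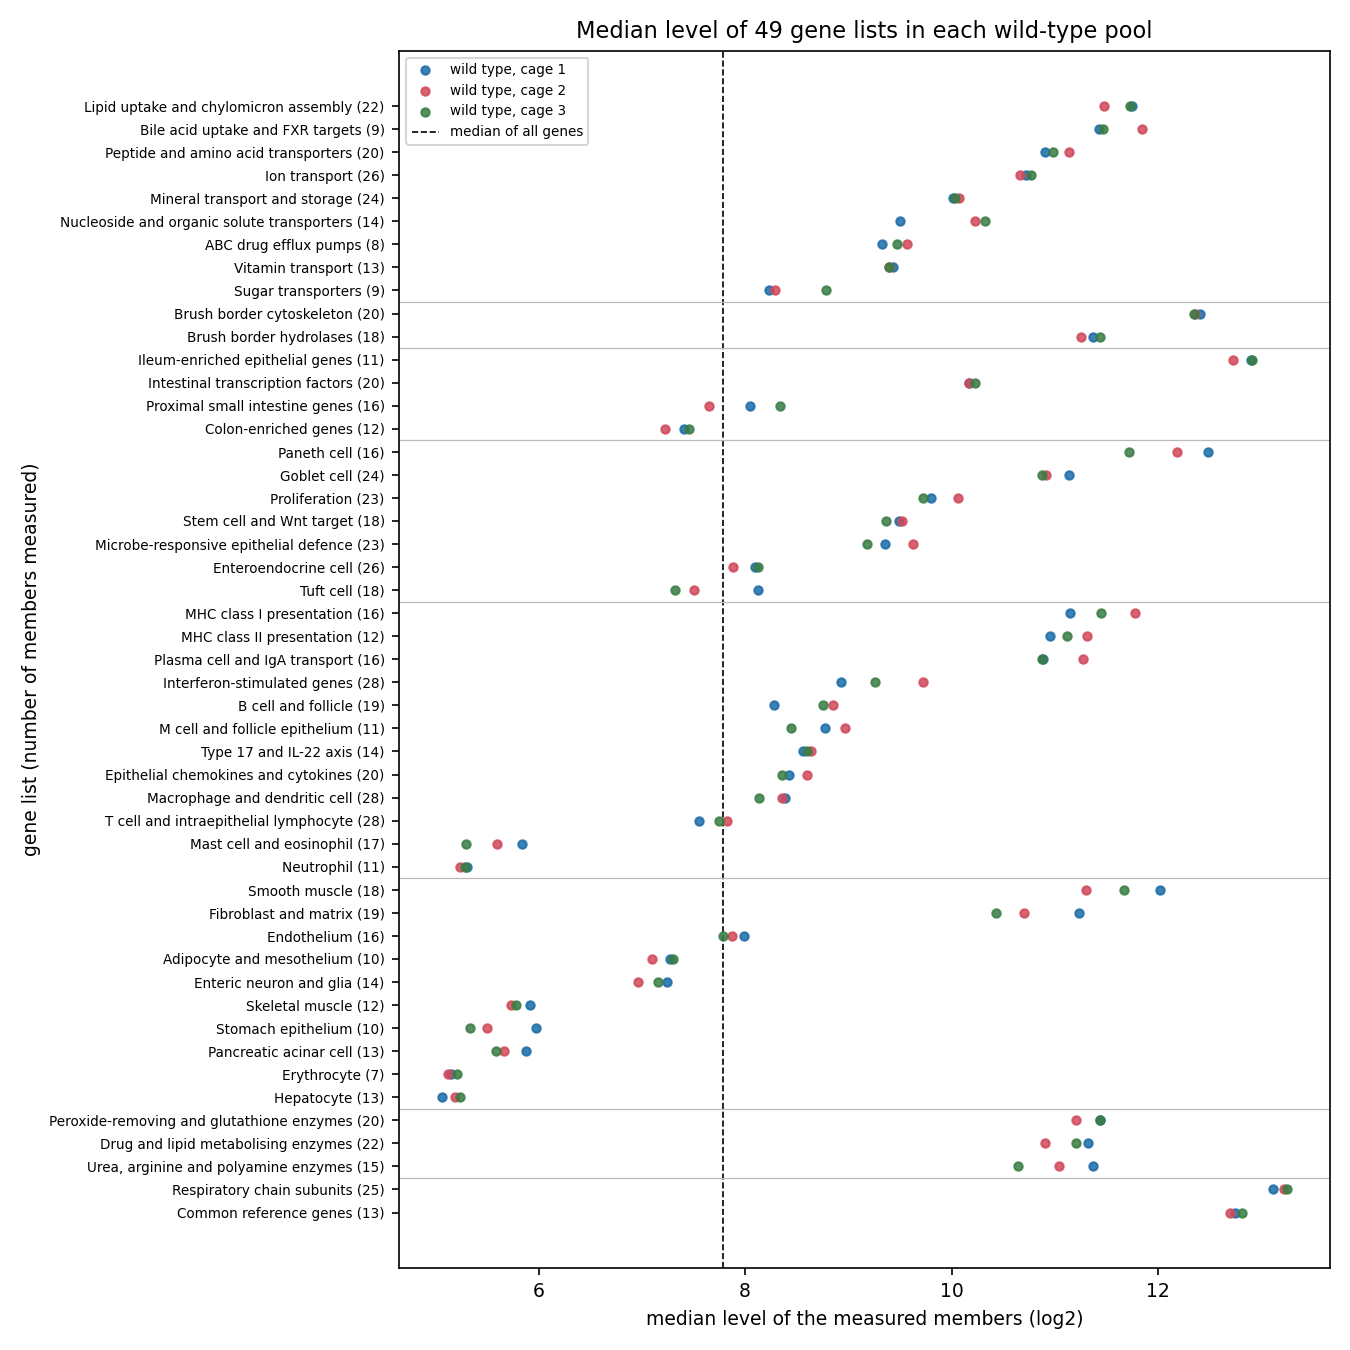
Median level (log2) of the measured members of 49 gene lists in each wild-type pool, with the number of measured members in parentheses and thin lines between classes of lists; the dashed line is the median of all genes, 7.78. Respiratory chain, ileum-enriched and common reference gene lists lie farthest right at 13.22, 12.87 and 12.75, followed by the brush border cytoskeleton list at 12.38, while neutrophil, erythrocyte and hepatocyte lists lie left of the line.

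Across the 49 lists, 37 had a median above that of all genes, and 36 did when the pool of cage 1 was left out. The lists hold genes known to be expressed in gut, so their levels describe the tissue and no list was tested against others.

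Goblet and Paneth cell products filled the secretory class. Of 24 goblet cell genes, 10 were in the brightest 5% of genes and 23 above the median of all genes, against 50.0% of all genes. After Zg16, Tff3 and Clca1 came Spink4, a protease inhibitor (14.37, 14.15 and 14.12), Muc2, the gel-forming mucin (14.30, 14.13 and 14.07), and Muc3, a mucin of the cell surface (14.01, 13.88 and 14.00). Cage 1 was highest for 14 of the 24, against 31.6% of all genes, and in the Duoxa-/- pools it was highest for 2 of the 24, against 33.4%. Retnlb, an antibacterial goblet cell protein, varied most, at 11.63, 10.96 and 9.52.

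Of 31 entries on the Paneth cell list 16 were measured, because most alpha-defensin symbols had no probe set of their own. Of the 16, 9 were in the brightest 5% of genes. The median of the list was 12.13, and it fell to 9.61 without probe sets marked for cross-hybridisation. Ang4, an antimicrobial ribonuclease, read 14.45, 13.69 and 13.76, Reg4, a lectin, 14.18, 13.26 and 13.62, and Mptx1, a mucosal pentraxin, 13.56, 12.56 and 12.56. Itln1, an intelectin that binds microbial sugars, read 14.29, 14.09 and 13.87. Pnliprp2, a lipase, and Clps, its cofactor colipase, read 13.88, 12.63 and 12.56 and 12.89, 11.81 and 11.30. All 6 were highest in cage 1, as were 10 of the 16, against 31.6% of all genes. Of the 16, 5 were highest in cage 2, Lyz1 among them, and 1, Defa31, was highest in cage 3. Of the same 16, 12 were highest in cage 2 in the Duoxa-/- pools, against 32.5% of all genes. In these bulk samples fewer cells of a type and less RNA per cell cannot be told apart.

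Pnliprp1, a relative of Pnliprp2 that is abundant in exocrine pancreas, had the widest range of the genes whose highest pool reached the median of all genes, at 10.28 in cage 1 against 6.88 and 7.39 in cages 2 and 3. The Duoxa-/- pools read 7.22, 9.04 and 6.15. Of 13 pancreatic acinar cell genes, 2 lay above the median of all genes, Clps and Cela1 (8.69, 8.80 and 8.72). The protease genes Prss2 and Ctrb1 had means of 6.86 and 6.08, with ranges of 0.29 and 0.20, while Clps had one of 1.60. Of the 13 genes 10 were highest in cage 1, against 31.6% of all genes, and the list median was 5.87, 5.67 and 5.58. The part of pancreatic RNA in these values was not tested. Capn13, a calpain, and St3gal4, a sialyltransferase, were also highest in cage 1 among wild-type pools (9.92, 7.69 and 7.79; 8.59, 6.43 and 6.97) and highest in cage 2 among Duoxa-/- pools.

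Enteroendocrine hormones of the distal gut were bright. Nts, neurotensin, read 12.90, 12.42 and 12.87, and Gcg, the precursor of glucagon-like peptides, read 12.31, 12.03 and 12.25. Of 26 measured genes 16 were lowest in cage 2, against 27.5% of all genes. Insl5, a hormone known from colon, had the widest range, at 7.98, 7.12 and 8.13. Pyy, the peptide YY gene, was at 10.85.

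Tuft cell genes were dim, with a median of 7.60 and 0 of 18 in the brightest 5% of genes, and they differed by pool. Cage 1 was highest for 14 of the 18 and cage 3 lowest for 12, against 31.6% and 33.2% of all genes. Dclk1, a kinase that marks these cells, read 8.72, 8.26 and 7.58, Siglecf, a sialic acid-binding receptor shared with eosinophils, read 8.68, 8.31 and 7.36, and Sh2d6, an adaptor, read 8.30, 7.44 and 7.20. Cage 1 was also highest for 12 of the 18 in the Duoxa-/- pools, against 33.4% of all genes. Il25, the cytokine of tuft cells, was at 4.64.

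Crypt genes were read as stem cell and proliferation lists. Olfm4, a marker of crypt base cells, read 13.10, 12.90 and 12.90. The proliferation list had a median of 9.86, and Mki67, a nuclear marker of cycling cells, read 10.95, 11.34 and 11.07, Top2a, a topoisomerase of dividing cells, 10.60, 11.04 and 10.82, and Cdc20, an activator of mitotic exit, 10.84, 11.36 and 11.04. Cage 2 was highest for 21 of the 23 genes, against 40.4% of all genes. In the Duoxa-/- pools it was highest for 17 of 23, against 32.5%. The median member lay 0.21 above its own wild-type mean in cage 2 and at -0.13 in cage 1. The ranges of these genes were at most 0.73, and 0 of 23 reached 1.

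Immune genes were led by the IgA system. Pigr, the receptor that carries IgA through enterocytes, read 14.11, 14.27 and 14.17, and Jchain, the joining chain of polymeric antibodies, read 13.98, 14.14 and 14.10. Xbp1, the transcription factor of secretory cells, had a mean of 13.09, and Ighm, the IgM heavy chain, one of 11.38. Mzb1, a chaperone of plasma cells, read 10.58, 11.30 and 11.17. Of 16 plasma cell and IgA genes 12 were highest in cage 2 and 10 lowest in cage 1, against 40.4% and 39.3% of all genes. The kappa segments Igkv6-20 (8.02, 10.01 and 7.97) and Igkv14-111 (9.48, 10.65 and 8.78) had wide ranges, both highest in cage 2, and the similar sequences of this family may share probes. Among Duoxa-/- pools cage 1 was highest for 13 of the 16 plasma cell and IgA genes and cage 2 for 1. The shares of all genes were 33.4% and 32.5%.

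Presentation genes were bright. MHC class I was represented by H2-K1 (13.86) and H2-D1 (13.59) besides B2m, and class II by H2-Aa (13.37, 13.56 and 13.23), H2-Eb1 (12.74) and Cd74, the invariant chain (13.12, 13.05 and 12.33). Of 16 class I genes 8 were in the brightest 5% of genes. Of the 16, 14 were highest in cage 2 and 13 lowest in cage 1, against 40.4% and 39.3% of all genes. The heavy chain genes H2-K1 and H2-D1, near the top of the scale, had ranges of 0.06 and 0.07. The 3 members of widest range were others. Tap1, a peptide transporter, read 9.21, 10.47 and 9.59, Psmb9, an immunoproteasome subunit, 10.69, 11.60 and 11.03, and Nlrc5, the transactivator of class I genes, 7.45, 9.27 and 8.36. Among Duoxa-/- pools cage 1 was highest for 15 of the 16 class I genes and cage 2 for 0. The shares of all genes were 33.4% and 32.5%.

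Interferon-stimulated genes showed the same order of wild-type pools as the class I genes. Of 28 measured, 26 lay above the median of all genes, and 7 had a range of at least 1, against 0.830% of all genes. Of the 28, 18 were highest in cage 2 and 20 lowest in cage 1, against 40.4% and 39.3% of all genes. Igtp read 9.35, 10.97 and 10.34, Iigp1, another GTPase of the same family, 8.94, 10.49 and 9.82, and Gbp6, a guanylate-binding protein, 8.64, 10.23 and 9.22. Ifit1bl1, an interferon-induced protein with tetratricopeptide repeats, read 11.92, 13.07 and 12.45. The median of the list was lowest in cage 1 (8.93), then cage 3 (9.26), and highest in cage 2 (9.73). In the Duoxa-/- pools 12 of the 28 genes (42.9%) were highest in cage 1 and 6 (21.4%) in cage 2, against 33.4% and 32.5% of all genes.

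T cell and intraepithelial lymphocyte genes were mostly highest in cage 2 and lowest in cage 1. Of 28 measured genes, 20 were highest in cage 2 and 20 lowest in cage 1, against 40.4% and 39.3% of all genes. The median member lay at -0.31, 0.29 and 0.02 relative to its wild-type mean in cages 1, 2 and 3. The list medians lay closer together, at 7.55, 7.82 and 7.75. Ccl5, a chemokine of cytotoxic cells, read 11.45, 12.82 and 12.25, and the granzyme genes Gzma and Gzmb read 10.48, 12.03 and 11.23 and 8.78, 10.73 and 9.72. Itgae, the integrin that retains lymphocytes in epithelium, read 9.61, 10.57 and 10.16, and Cd3d, a chain of the T cell receptor complex, 8.77, 9.60 and 9.46. In the Duoxa-/- pools 22 of the 28, against 33.4% of all genes, were highest in cage 1, the cage with the lowest wild-type values. Ubd, a ubiquitin-like protein induced by interferon gamma, read 7.66, 10.40 and 8.82, and the chemokine genes Cxcl9 and Cxcl10 read 8.28, 9.95 and 9.20 and 7.41, 8.90 and 8.16.

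B cell genes shared the low values of cage 1. Of 19 measured genes 17 were lowest there, against 39.3% of all genes. Ms4a1, the CD20 antigen, read 10.19, 10.57 and 10.89, and Cd79b, a chain of the B cell receptor, 8.67, 9.23 and 9.37. Cxcl13, the chemokine of follicles, read 10.43, 11.27 and 11.28. Of the 19, 16 were highest in cage 1 in the Duoxa-/- pools, against 33.4% of all genes. Follicles of lymphoid tissue are scattered in the ileum, and how much each pool held was not recorded in the sources used here. Gp2, a receptor of M cells over follicles, was at 5.75.

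Macrophage and dendritic cell genes were moderate, with a median of 8.23. Lyz2, the macrophage lysozyme, read 12.63, 12.74 and 12.61, and Csf1r, the receptor of macrophage growth factor, 11.19, 11.42 and 11.06. Cage 2 was highest for 23 of the 28, against 40.4% of all genes. Neutrophil genes were all under the median of all genes, 0 of 11 above it, with S100a8, a calprotectin chain, at 5.52 and Mpo, myeloperoxidase, at 5.42. Of 17 mast cell and eosinophil genes 9 were highest in cage 1, 6 in cage 2 and 2 in cage 3. The shares of all genes were 31.6%, 40.4% and 28.0%. Lowest in cage 3 were 9 of the 17, against 33.2% of all genes. The mast cell proteases of widest range had another order. Mcpt1 read 7.14, 7.91 and 4.56, Mcpt2 7.83, 9.24 and 6.08, and Cpa3, a carboxypeptidase, 5.59, 6.20 and 4.68. All 3 were highest in cage 2 and lowest in cage 3, and in the Duoxa-/- pools Mcpt1 (5.61, 6.82 and 4.63) and Mcpt2 (6.68, 7.79 and 5.96) kept that order of cages.

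Inducible epithelial defence genes had a wide span of levels, from Reg3b at 14.59 to Sprr2h, a cornified envelope protein, at 4.86. Of 23 measured genes 7 had a range of at least 1, and 14 were highest in cage 2, against 0.830% and 40.4% of all genes. Saa1, the acute-phase serum amyloid A, read 10.86, 13.40 and 11.57, and Saa2 read 7.50, 9.28 and 7.66. Their near-identical transcripts may not be separated. Gsdmc2, a gasdermin of epithelium, went the other way, at 12.87 in cage 1 against 11.39 and 11.59. Plet1, a surface glycoprotein, read 7.83, 10.45 and 7.49. Saa1 read 13.05, 13.70 and 12.26 in the Duoxa-/- pools, with cage 2 again highest. Il17a, a cytokine of type 17 lymphocytes that acts on epithelial defence, read 6.64 in cage 1 and 7.07 in cage 3, and was highest in cage 2 with a range of 1.35.

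**Figure D4:**
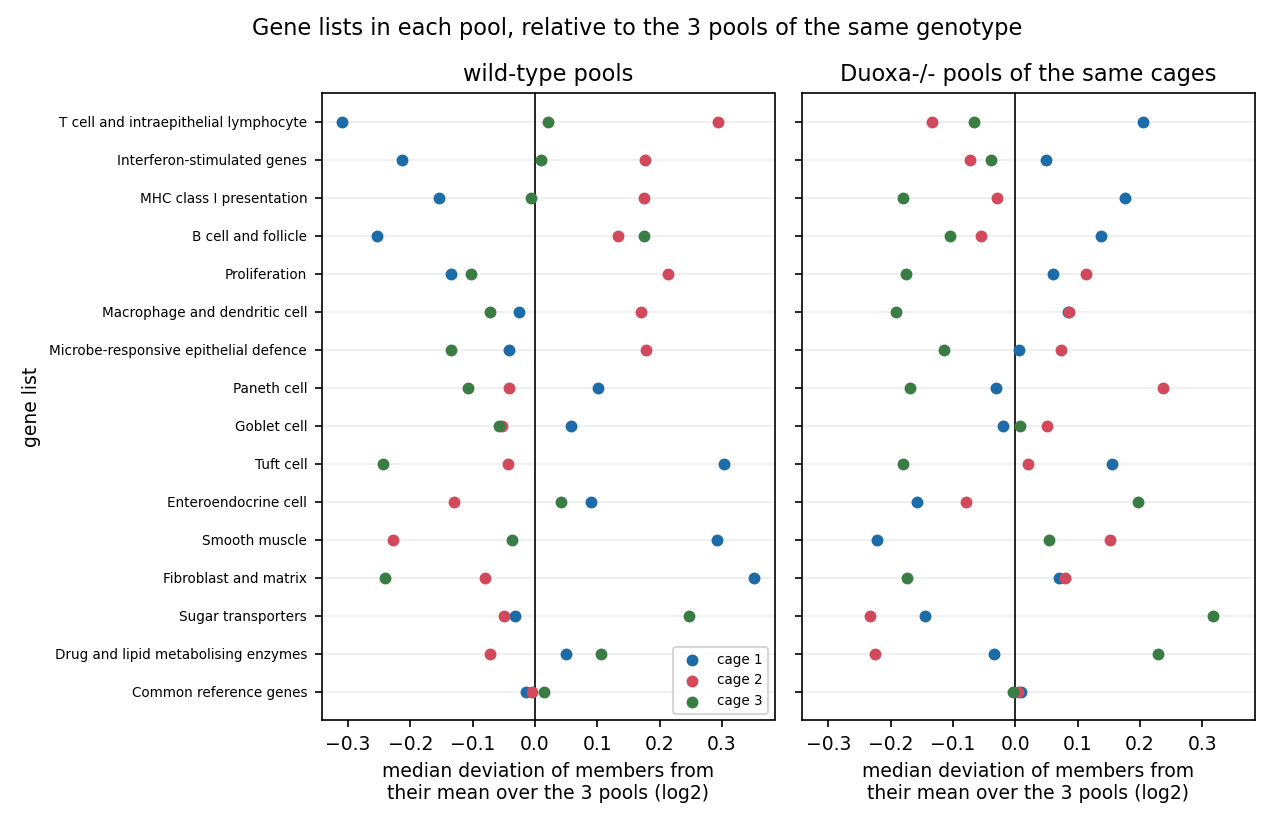
Median deviation (log2) of the members of 16 gene lists from their mean over the 3 pools of the same genotype, for wild-type pools on the left and Duoxa-/- pools of the same cages on the right; colours are cages. In wild type the T cell list lies at -0.31, 0.29 and 0.02 in cages 1, 2 and 3, and the smooth muscle list at 0.29, -0.23 and -0.04.

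Genes of the tissue under the epithelium were mostly highest in cage 1. Of 18 smooth muscle genes 17 were highest in cage 1 and 15 lowest in cage 2, against 31.6% and 27.5% of all genes. All 18 lay above the median of all genes. Acta2, smooth muscle actin, read 13.69, 13.27 and 13.45, Tagln, transgelin, 13.13, 12.69 and 12.94, and Des, desmin, 11.75, 10.93 and 11.10. Of 19 fibroblast and matrix genes 16 were highest in cage 1, with Col3a1, a fibrillar collagen, at 13.52, 12.97 and 12.66 and Col1a1 at 9.63, 8.41 and 8.08. Of 14 neuron and glia genes 11 were highest in cage 1, and Vip, a neuropeptide, read 11.12, 10.77 and 10.71. The same pool had the lower lymphocyte and interferon values, and whether these moved with the muscle and matrix genes was not tested. In the Duoxa-/- pools 13 of the 18 smooth muscle genes were highest in cage 2 and 0 in cage 1, against 32.5% and 33.4% of all genes.

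Markers of other organs were mostly dim. Of 12 entries on the erythrocyte list only 7 were measured, and the globin genes Hbb-bs and Hbb-bt were not among them. All 7 were under the median, with Hbb-b2, a beta globin, at 7.37, 6.71 and 6.91, and of 13 hepatocyte genes 3 lay above it. Of 10 stomach genes 1 did, Tff1 (9.03, 8.13 and 8.55), but Gkn1 and Gkn2, the gastrokines of gastric surface cells, read 7.24 and 6.35 in cage 1 and at most 5.29 and 5.13 in the other cages. Cage 1 was highest for 8 of the 10 stomach genes, against 31.6% of all genes. Fabp4 (11.44) and Adipoq (9.17), genes of adipocytes, had ranges of 0.24 and 0.26.

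Metabolic enzymes gave both steady and variable genes. Of 20 peroxide-removing and glutathione genes all lay above the median of all genes, and Txn1, thioredoxin (14.16), Gpx2, the intestinal glutathione peroxidase (13.63), and Gstp1, a glutathione transferase (13.43), had ranges of 0.04, 0.16 and 0.06. Oat, ornithine aminotransferase (13.27), Cps1, carbamoyl phosphate synthetase (12.68), and Otc, ornithine transcarbamylase (12.36), stood for citrulline synthesis, for which the small intestine is known. Ass1, the enzyme that uses citrulline, was at 4.20. Cytochrome genes differed by pool: Cyp3a11 read 11.70, 9.25 and 11.33, and Cyp2d26 10.91, 9.68 and 11.14. Cyp2c65 read 9.74 in cage 1 and 9.99 in cage 3, with a range of 1.99. All 3 were lowest in cage 2, as were 11 of the 22 genes of this list, against 27.5% of all genes. In the Duoxa-/- pools Cyp3a11 (9.57, 8.83 and 11.89) and Cyp2c65 (8.44, 8.12 and 10.25) were lowest in cage 2 too, while Cyp2d26 (9.66, 9.68 and 11.21) was lowest in cage 1. Aadac, an arylacetamide deacetylase (7.50, 6.18 and 8.36), and Acaa1b, a peroxisomal thiolase (8.31, 6.34 and 8.19), were lowest in cage 2 in both genotypes.

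Over all genes, 151 had a range of at least 1 over the wild-type pools, 0.830% of 18193, and 15 of them reached a range of 2. Over the pools of cages 2 and 3 alone the count was 63, over cages 1 and 3 it was 56 and over cages 1 and 2 it was 85, and a range over fewer pools must be smaller. Cage 1 was the highest pool for 53 of the 151, cage 2 for 66 and cage 3 for 32. In the brightest 5% of genes 9 had such a range. They were Saa1, Clps, Gsdmc2, Ccl5, Slc34a2, Pnliprp2 and Ifit1bl1, given above, the uridine phosphorylase gene Upp1 (11.89, 13.00 and 12.41) and the phospholipase gene Pla2g4c (13.38, 12.28 and 12.69).

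**Figure D5:**
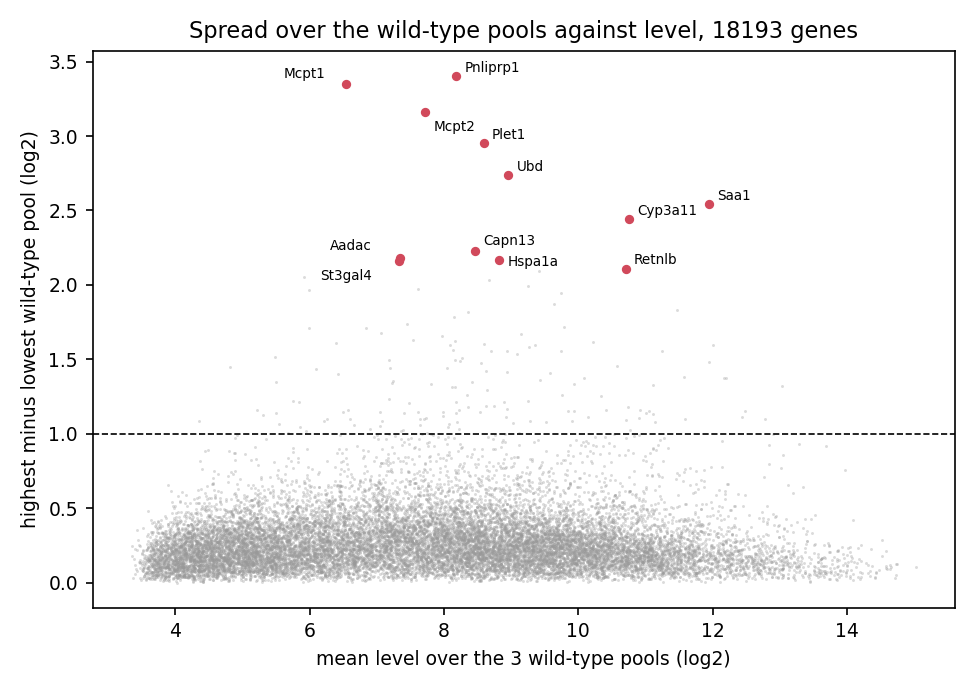
Highest minus lowest wild-type pool (log2) against mean level (log2) for each of 18193 genes, with the 12 genes of widest range whose highest pool reached the median of all genes in red; the dashed line is a range of 1. Most genes lie under 0.5, and Pnliprp1 is at the top with 3.40.

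Whether the cage of the highest wild-type pool was also that of the highest Duoxa-/- pool was read side by side, since the latter arrays did not enter the choice of genes. It was for 63 of the 151 genes (41.7%), against 34.9% of all genes, and the lowest cage was the same for 59 (39.1%), against 35.6%. The share differed by cage. Of 53 genes lowest in cage 3, 41 were lowest in cage 3 in the Duoxa-/- pools as well, and of 32 highest in cage 3, 26 were. For all genes these shares were 43.2% and 44.4%. Of 66 genes highest in cage 2, 23 were, and of 44 lowest in cage 2, 11 were, against 33.7% and 40.5% of all genes. Of 53 genes highest in cage 1, 14 were, and of 54 lowest in cage 1, 7 were, against 28.1% and 25.8%. Among the 20 genes of widest range the highest cage was shared by 8 and the lowest by 10.

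The steadiest bright genes, the 10 of smallest SD over the wild-type pools, were mostly of general cell biology. They were chosen by that SD, so its small size follows from the choice. Rab5if, an endosomal Rab5 interacting factor, read 11.89 in all 3 pools, Top1, DNA topoisomerase, 12.11, 12.11 and 12.12, and Myl12b, a myosin light chain, 13.45 in each. Dbi, the acyl-CoA binding protein (13.45), Arpc5, a subunit of the actin-branching complex (12.50), Hadh, a mitochondrial dehydrogenase of fatty acid oxidation (13.86), Rps14 of the ribosome (14.08), Api5, an apoptosis inhibitor (12.18), and Rab14, a vesicle GTPase (12.63), had SDs of at most 0.011. Among 13 genes in common use as references, Ywhaz (13.73, 13.76 and 13.75) and Tbp (8.20, 8.18 and 8.18) had SDs of 0.013 and 0.010, whereas Gusb, a lysosomal glucuronidase, read 9.05, 9.59 and 9.15. Actb, with an SD of 0.090 over the wild-type pools, was not among the steadiest. Over the Duoxa-/- pools the 10 steadiest bright genes had SDs from 0.021 (Myl12b) to 0.074 (Hadh), and Actb had one of 0.047.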

How the data were processed

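Ileal mucosa RNA was extracted with TRIzol, treated with deoxyribonuclease, passed over RNeasy columns and turned into biotin-labelled cRNA, per the labels' protocols. The deposited values are log2 levels of probe sets that the authors summarised with RMA in affy, per the submitters' processing notes. RMA subtracts background, equalises the arrays and compresses small differences of dim and saturated probe sets. Tool versions were not given in the sources used here. Dim genes were judged by level alone, without raw intensities or detection calls.

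Of 45101 rows, 64 controls were left out. Of the other 45037, 34945 had 1 symbol in the platform annotation, 932 several and 9160 none listed. The probe set of highest mean in the 3 wild-type arrays stood for each of the 18193 genes. Of 963 entries in 49 gene lists, 837 were measured, 6 under an older symbol. Mean, SD and range (highest minus lowest pool) were computed in pandas 2.3.3 under Python 3.11.15, and matplotlib 3.10.9 drew the plots. The code was run on simulated data, where 200 of 200 genes shifted in 1 pool were recovered in the right pool. The shift was larger than a range of 1 and far above the simulated noise, so this recovery was set in advance. It does not show how well smaller ranges or noisier genes are read. Promoter windows were matched by symbol, and motif letters were searched on both strands.

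No test was run and no p value is given, since each wild-type pool is a different cage. The text names the 25 brightest genes, with their other probe sets; of each list up to 6 brightest, up to 3 of widest range and the lowest member; the 20 genes of widest range and bright genes with a range of at least 1; the brightest and most variable transporter genes; and the 10 steadiest bright genes. Other genes named, such as Slc15a1 and Cftr in the plot of transport genes, were chosen after their values were seen. Members and lists were chosen with earlier results of these data known. Alternatives were the mean of all probe sets, no cross-hybridising probe sets, a probe set chosen over 6 arrays, leaving out each pool, other normalizations and other thresholds.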

Additional observations from a re-analysis of the deposited data

How the results depend on the processing

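The list of 25 brightest genes kept 24 to 25 members when each wild-type pool was left out, 17 with the mean of all probe sets and 20 without cross-hybridising probe sets. The count of genes with a range of at least 1 fell from 151 to between 56 and 85 when a pool was left out (63 without cage 1, 56 without cage 2, 85 without cage 3), because fewer pools give smaller ranges. Under the other settings it lay between 118 and 183. Lists above the median numbered 36 to 41 of 49, against 37. Transporter genes counted in the brightest 10% of genes numbered 53, against 33 in the brightest 5%, by construction. They numbered 34 with the mean of all probe sets, 36 without cross-hybridising ones and 23 with the narrower families, an alternative chosen after seeing the data. Counts of list members without cage 1 were added likewise and changed by at most 2.

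Of the median levels of lists, 33 moved with the mean of all probe sets, under which the median of all genes itself shifted by -0.81, and 16 without cross-hybridising probe sets, where it shifted by -0.13. The largest fall under the latter setting was that of the Paneth cell list, by -2.52 to 9.61. No paired analysis was possible because the results come from no test: genotypes were not contrasted, and Duoxa-/- pools of the same cages were read beside the wild-type pools only for the order of cages. The cage cannot be told apart from the pool, brightness cannot rank transcripts of different genes, and signal over background could not be judged without detection calls.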

Other observations

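The brightest probe set of the wild-type arrays had no gene listed. Probe set 1420598_x_at read 15.02, 14.99 and 15.46 in cages 1, 2 and 3, above Defa31 in each of the 3 pools and with a wider spread (SD 0.26). It was followed by 1416624_a_at (14.57, 14.64 and 14.67) and 1422242_at (14.48, 14.52 and 14.46). Of 9160 unnamed probe sets, 91 reached 11.83, the level of the brightest 5% of genes, and 39 had a range of at least 1 over the wild-type pools. Of 932 probe sets with several symbols, 186 reached that level, so the ranking of genes leaves out some bright transcripts.

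Some genes that most cells use had dim probe sets: Cox7c of the respiratory chain read 8.15, 8.45 and 8.06, while the other 24 subunits of its list were in the brightest 5% of genes. Tyms, an enzyme of DNA synthesis, read 4.57, 4.35 and 4.97, the lowest of the 23 proliferation genes.

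A second probe set of Actb read 10.36, 11.46 and 11.04 in cages 1, 2 and 3, a range far wider than that of its brightest probe set (14.61, 14.43 and 14.54) and in the opposite order of pools. Within the brightest 1% of genes, 181 in number, Clca1 (14.35), Clca4a (13.34) and Clca4b (13.94), chloride channel accessory genes, were neighbours on chromosome 3.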
